A study of Homo sapiens with 6 samples.

Results

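The transcripts of 10 genes through which tumour cells hold back immune cells were followed in MDA-MB-436 cells with and without silencing of MUC1. MDA-MB-436 is a triple-negative breast cancer cell line, one that lacks oestrogen and progesterone receptors and HER2 amplification, and the cells carried a doxycycline-inducible shRNA against MUC1. The control group received 0.1% DMSO as vehicle and the shMUC1 group received 500 ng/ml doxycycline, with 3 libraries in each group. Both groups carried the same inducible MUC1 shRNA according to the treatment labels and the design text, although the titles call the controls a control shRNA. An effect of doxycycline itself and an effect of MUC1 silencing cannot be told apart in these 6 libraries, which come from 1 line and 1 hairpin. The genes were taken by symbol from the 37887 rows of the count table. They were CD274, PDCD1LG2, CD276, VTCN1, PVR, NECTIN2, LGALS9, CD47, TNFRSF14 and CMTM6.

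Checkpoint ligands are surface or secreted proteins that engage receptors on T cells, natural killer cells or macrophages. CD274 (PD-L1) and PDCD1LG2 (PD-L2) bind PD-1 on T cells and dampen signalling from the T-cell receptor. CD276 (B7-H3) and VTCN1 (B7-H4) belong to the same B7 family and are mainly known as T-cell inhibitors. PVR (CD155) and NECTIN2 (CD112) are adhesion molecules that bind the inhibitory receptor TIGIT and the activating receptor CD226. LGALS9 encodes galectin-9, a ligand of HAVCR2 (TIM-3). CD47 tells macrophages not to engulf the cell, through SIRPA. TNFRSF14 (HVEM) binds BTLA and CD160, and CMTM6 keeps PD-L1 protein from being degraded at the cell surface. PD-L1 transcription is known to be raised by interferon gamma through IRF1 and by NF-kB.

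Library totals ran from 18678307 to 27825546 counts. MUC1, the targeted gene, had 93, 84 and 102 counts in control and 72, 51 and 34 in shMUC1 libraries. It was 3.88 ± 0.401 CPM in control libraries, where CPM is counts per 1000000 scaled counts, and 2.14 ± 0.412 CPM in shMUC1 libraries (SD, n = 3 each). It fell by 0.842 on the log2 scale (SE 0.214, adjusted p 0.00119 in edgeR's quasi-likelihood test). The line markers VIM, KRT8 and KRT18 had at least 2867 counts in every library, but their levels differed between the groups. VIM was lower in shMUC1 libraries (417 CPM against 718 in control). KRT8 (825 against 426) and KRT18 (266 against 131) were higher. ESR1 and PGR reached at most 12 and 4 counts. ERBB2 had 715 to 1142 counts. Of 9 immune-cell markers, CD3E, CD2 and MS4A1 were at 0 in every library. The summed immune-cell marker level was 3.83 to 4.45 CPM in control and 8.17 to 10.4 CPM in shMUC1 libraries. Most of it was CD14, with means of 2.99 CPM in control and 6.28 CPM in shMUC1 libraries. Of the 4 markers tested, CD14, CSF1R and PTPRC were higher. ITGAM had a lower mean (0.276 CPM against 0.523 in control) and did not pass (edgeR adjusted p 0.183). The part of these markers in the results for the checkpoint genes was not tested. In bulk RNA, a smaller share of cells with a transcript and less of it per cell cannot be told apart.

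Promoter sequence is shown first for 4 of the genes. CD274 and LGALS9 were chosen as the searched members matching an ISRE-like motif (interferon-stimulated response element, here a pair of GAAA words 2 bases apart). PVR and NECTIN2 were chosen because they rose by nearly the same amount. RefSeq promoters (GRCh38.p14, from 250 bases before to 50 after the start) were found for 9 of the 10 genes, all but PDCD1LG2. They were searched on both strands for this motif, the GAS-like word TTCNNNGAA, the NF-kB consensus and the E-box CACGTG. Capitals mark every match in the lines that follow, each given 5′ to 3′ on the gene's own strand.
CD274, chr9:5450292-5450591, plus strand: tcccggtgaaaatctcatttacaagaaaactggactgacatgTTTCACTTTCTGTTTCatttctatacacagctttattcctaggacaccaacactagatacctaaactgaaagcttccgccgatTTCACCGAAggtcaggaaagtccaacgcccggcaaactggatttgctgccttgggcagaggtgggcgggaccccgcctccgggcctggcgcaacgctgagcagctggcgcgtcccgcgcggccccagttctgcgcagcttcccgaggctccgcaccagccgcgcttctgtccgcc
LGALS9, chr17:27630938-27631237, plus strand: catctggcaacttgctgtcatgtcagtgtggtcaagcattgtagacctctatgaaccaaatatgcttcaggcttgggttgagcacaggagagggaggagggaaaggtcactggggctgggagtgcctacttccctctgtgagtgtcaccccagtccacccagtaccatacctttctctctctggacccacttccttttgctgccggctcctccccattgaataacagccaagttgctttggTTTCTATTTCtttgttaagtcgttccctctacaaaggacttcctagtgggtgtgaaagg
PVR, chr19:44643660-44643959, plus strand: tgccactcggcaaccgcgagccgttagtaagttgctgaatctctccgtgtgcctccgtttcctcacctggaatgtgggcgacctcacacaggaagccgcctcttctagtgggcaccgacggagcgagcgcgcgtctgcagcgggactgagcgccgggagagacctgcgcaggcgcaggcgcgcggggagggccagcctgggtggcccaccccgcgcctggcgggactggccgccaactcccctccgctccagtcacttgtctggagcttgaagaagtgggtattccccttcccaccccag
NECTIN2, chr19:44846047-44846346, plus strand: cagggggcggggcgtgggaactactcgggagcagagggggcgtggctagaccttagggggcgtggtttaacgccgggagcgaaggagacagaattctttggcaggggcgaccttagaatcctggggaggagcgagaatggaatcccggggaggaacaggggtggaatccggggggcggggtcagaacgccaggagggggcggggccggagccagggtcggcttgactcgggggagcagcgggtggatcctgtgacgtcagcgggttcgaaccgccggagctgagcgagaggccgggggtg

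The CD274 window held 2 overlapping ISRE-like matches, which began 208 and 202 bases before the start and read on the opposite strand, and 1 match to TTCNNNGAA at 125 bases before it. The LGALS9 window held 1 ISRE-like match at 9 bases before the start, also on the opposite strand. The GENCODE gene LGALS9 begins further upstream than this RefSeq start. Of all 35116 promoters in the table, 3.57% held the ISRE-like motif and 7.66% held TTCNNNGAA. The NF-kB consensus, held by 11.3% of promoters, was matched in TNFRSF14 and in 1 of the 2 CD276 windows. The E-box, held by 7.26%, was matched in none of the members searched, which leave out PDCD1LG2. PVR and NECTIN2 held none of the 4 motifs in these windows.

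The members covered a wide range of levels. On a per-length scale (TPM, transcripts per 1000000, from counts and GENCODE exon length), CMTM6 led with 157 ± 5.54 TPM in control cells (SD, n = 3). CD276 followed at 106 ± 3.55 TPM and CD47 at 55.7 ± 2.16 TPM. NECTIN2 at 33.2 ± 3.76 TPM and PVR at 30.1 ± 1.44 TPM had overlapping ranges over the control libraries. PDCD1LG2 stood at 7.91 ± 0.132 TPM and CD274 at 1.56 ± 0.42 TPM. LGALS9 came next at 0.443 ± 0.178 TPM and VTCN1 at 0.0714 ± 0.0618 TPM, and TNFRSF14 was at 0. The order of these 8 tested genes was the same in shMUC1 cells. CMTM6 exceeded 92.9% of all tested genes in control cells, whereas CD274 exceeded 13.6%. PD-L1 transcript was scarce in both conditions, and the transcript of the protein that stabilises PD-L1 was abundant.

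**Figure D1:**
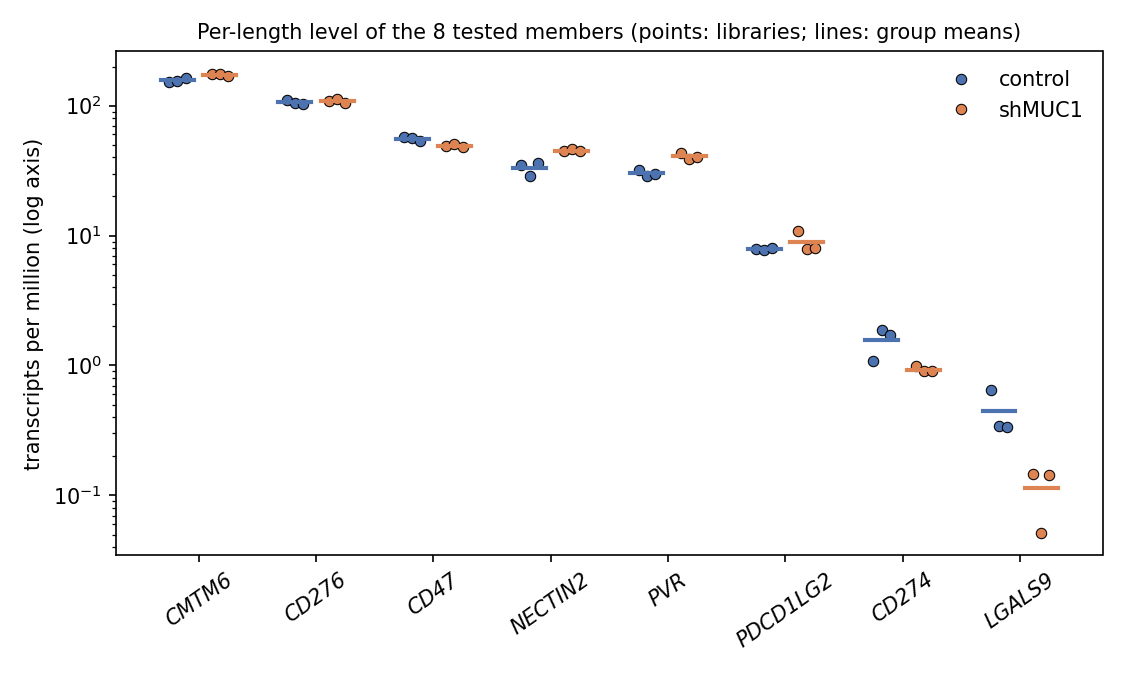
Level of the 8 tested members in TPM on a log axis, with 3 control libraries (blue) and 3 shMUC1 libraries (orange) as points and group means as lines. CMTM6, CD276 and CD47 lie near or above 50 TPM, PDCD1LG2 between 7.78 and 10.9 TPM and CD274 below 2 TPM in every library.

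Of the 10 genes, 8 had enough counts to be tested. Among them 4 rose (CD276, PVR, NECTIN2 and CMTM6), 1 fell (LGALS9) and 3 did not pass (CD274, PDCD1LG2 and CD47) at an adjusted p under 0.05. Across all 15355 tested genes, 25.2% were higher and 23.6% lower by the same rule, so that 48.7% were called in either direction. The 62.5% of tested members that were called stands near this background. LGALS9 alone among the members also passed a fold change over 2, which 2.21% of all tested genes did upward and 3.74% downward. The median log2 fold change was 0.16 over the 8 members and 0.000583 over all tested genes. In 7 of the 8 members no CPM value of 1 group reached the range of the other, beside 54.8% of all tested genes.

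**Figure D2:**
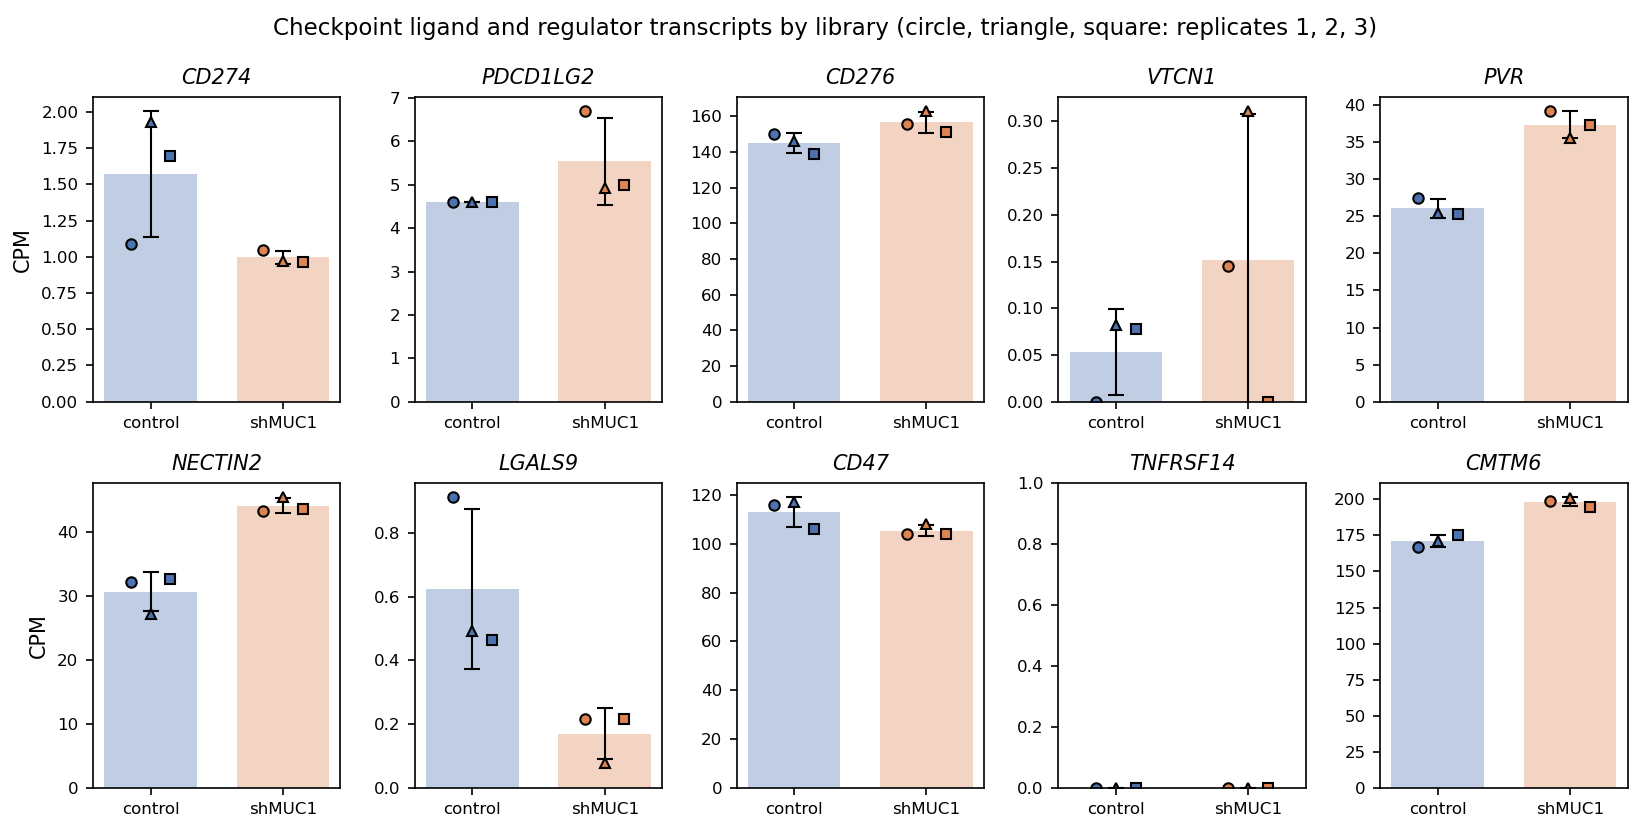
CPM of all 10 members in each library, with bars at the group mean, whiskers of 1 SD (n = 3) and 1 symbol per replicate on linear axes that start at 0, where the VTCN1 whisker is cut off. PVR, NECTIN2 and CMTM6 are higher in all 3 shMUC1 libraries than in any control library, LGALS9 is lower in all 3, and TNFRSF14 is at 0 throughout.

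The TIGIT ligands rose together. PVR stood at 27.5, 25.4 and 25.3 CPM in control libraries and at 39.2, 35.6 and 37.3 CPM in shMUC1 libraries. NECTIN2 stood at 32.2, 27.1 and 32.6 CPM in control and at 43.2, 45.4 and 43.6 CPM in shMUC1 libraries. Every shMUC1 library lay above every control library for both genes. PVR changed by 0.52 on the log2 scale (SE 0.0701), a fold change of 1.44, with an edgeR adjusted p of 7.45e-08. NECTIN2 changed by 0.53 (SE 0.069), also a fold change of 1.44, with an edgeR adjusted p of 4.82e-08. Among all tested genes, 21.8% and 21.5% had a larger absolute change than PVR and NECTIN2.

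No difference in the balance between these ligands was detected. The log2 ratio of PVR to NECTIN2 counts within a library was -0.23 ± 0.135 in control and -0.24 ± 0.104 in shMUC1 cells (SD, n = 3 each). The difference of -0.00925 had an exact two-sided permutation p of 1, where 0.1 is the smallest that 3 against 3 allows, and its sign turned without control replicate 2 (0.0586) or shMUC1 replicate 2 (0.0457). PVR and NECTIN2 lie 182.6 kb apart on chromosome 19, at 44643798 to 44663583 and 44846175 to 44889228 (GENCODE release 29, GRCh38, plus strand). PVR shares annotated exon sequence with CEACAM19 on the same strand, which had 6 to 40 counts per library, and NECTIN2 overlaps AC011481.2 on the opposite strand.

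The PD-1 ligands did not pass the test. CD274 stood at 1.09, 1.93 and 1.70 CPM in control and at 1.05, 0.971 and 0.968 CPM in shMUC1 libraries, from 18 to 47 counts each. Control replicate 1 lay just above the shMUC1 libraries and apart from the other controls. The log2 fold change of CD274 was -0.66 (SE 0.335), with a 95% interval of the fold from 0.395 to 1.01 and an edgeR adjusted p of 0.101. Leaving out control replicate 1 took it to -0.86 with an adjusted p of 0.0432, and the adjusted p over all alternatives ran from 0.0432 to 0.326. That interval covers both no change and a level in shMUC1 cells of 0.395 times that in control.

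PDCD1LG2, which lies 40.0 kb beyond CD274 on chromosome 9, had 4.61, 4.60 and 4.61 CPM in control libraries. In shMUC1 libraries it had 6.70, 4.93 and 5 CPM, so that 1 library carried most of the difference. Its log2 fold change was 0.28 (SE 0.162), with an edgeR adjusted p of 0.163, and without shMUC1 replicate 1 it was 0.11. The log2 ratio of CD274 to PDCD1LG2 counts was -2.05, -1.24 and -1.43 in control and -2.65, -2.32 and -2.34 in shMUC1 libraries. The ratio was lower in every shMUC1 library, a mean difference of -0.86, which gave the smallest p that the exact two-sided permutation allows (0.1, or 0.2 adjusted over 4 ratios).

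CMTM6 rose. It stood at 167, 171 and 175 CPM in control and at 199, 201 and 195 CPM in shMUC1 libraries, with no overlap. Its log2 fold change of 0.22 (SE 0.0359) was a fold of 1.16 with a 95% interval from 1.10 to 1.22 and an edgeR adjusted p of 4.09e-06. The change was small beside those of all tested genes, of which 55.1% moved further. On the TPM scale the rise was smaller, with 157 ± 5.54 in control and 172 ± 2.49 in shMUC1 cells (SD, n = 3 each). CMTM6 shares exon sequence with CMTM7 on the opposite strand. CMTM7 counts, not scaled for depth, were 803, 878 and 894 in control and 1186, 1088 and 776 in shMUC1 libraries. The library with 776 was the shallowest, with a total of 18678307 counts. Set against the library totals, CMTM7 was higher in every shMUC1 library than in any control library, as CMTM6 was. Whether counting used strand is not given in the sources used here, and the part of CMTM7 reads was not tested. The log2 ratio of CD274 to CMTM6 was -6.78 ± 0.395 in control and -7.61 ± 0.0627 in shMUC1 cells (SD, n = 3 each; exact permutation p 0.1, two-sided).

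CD276, the most abundant of the B7 members, rose slightly. It had 150, 146 and 139 CPM in control and 156, 163 and 151 CPM in shMUC1 libraries, and the lowest shMUC1 library lay just above the highest control library. The log2 fold change was 0.11 (SE 0.04) with an edgeR adjusted p of 0.0174, and the fold was 1.08. The call was lost without control replicate 3 (0.07, adjusted p 0.161) and without shMUC1 replicate 2 (0.09, adjusted p 0.118), and in TPM the groups overlapped. VTCN1 had 0, 2 and 2 counts in control and 4, 8 and 0 in shMUC1 libraries, too few to be tested.

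Of the 8 tested members, LGALS9 had the largest fold change and the fewest counts. It had 20, 12 and 12 counts in control and 6, 2 and 4 in shMUC1 libraries, and the groups did not overlap. In CPM this was 0.623 ± 0.251 against 0.170 ± 0.0799 (SD, n = 3 each). The log2 fold change was -1.85 (SE 0.587), with a 95% interval of the fold from 0.122 to 0.633 and an edgeR adjusted p of 0.00862. The call was lost without control replicate 1 (-1.49, adjusted p 0.0766) and without shMUC1 replicate 2 (-1.49, adjusted p 0.0657). Every LGALS9 count was even, as were most small counts in these libraries, for a reason not tested. With halved counts LGALS9 had too few counts to be tested. LGALS9 has near-identical copies, LGALS9B and LGALS9C, and reads could have been split between them, so the LGALS9 value is uncertain. LGALS9B had 0 counts in every library, and LGALS9C had 8 counts in shMUC1 replicate 2 and 0 in the others.

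CD47 was nearly level between the groups. It had 116, 117 and 106 CPM in control and 104, 108 and 104 CPM in shMUC1 libraries, and the groups overlapped, although in TPM they did not (53.2 to 57.2 against 48.2 to 50.3). The log2 fold change of -0.10 (SE 0.0434) had an edgeR adjusted p of 0.0575, and the 95% interval of the fold ran from 0.878 to 0.992. It passed the threshold under 6 of 14 alternatives, among them those without control replicate 3 (-0.155, adjusted p 0.00383) and without shMUC1 replicate 2 (-0.12, adjusted p 0.0486), so the call depended on the setting while the value stayed small.

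TNFRSF14 had 0 counts in all 6 libraries, as did its antisense partner TNFRSF14-AS1. In the shallowest library 3 counts equal 0.161 CPM, which is the level a count of 0 allows if counts are independent. Most small counts in these libraries were even, for a reason not tested, so this level may be too low. TNFRSF14 lies on chromosome 1 at 2555639 to 2565382 (GRCh38, plus strand). Among its nearest annotated protein-coding neighbours, PANK4 had 353 to 642 counts and PRXL2B had 24 to 64, while HES5, MMEL1 and TTC34 were at 0 in every library.

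**Figure D3:**
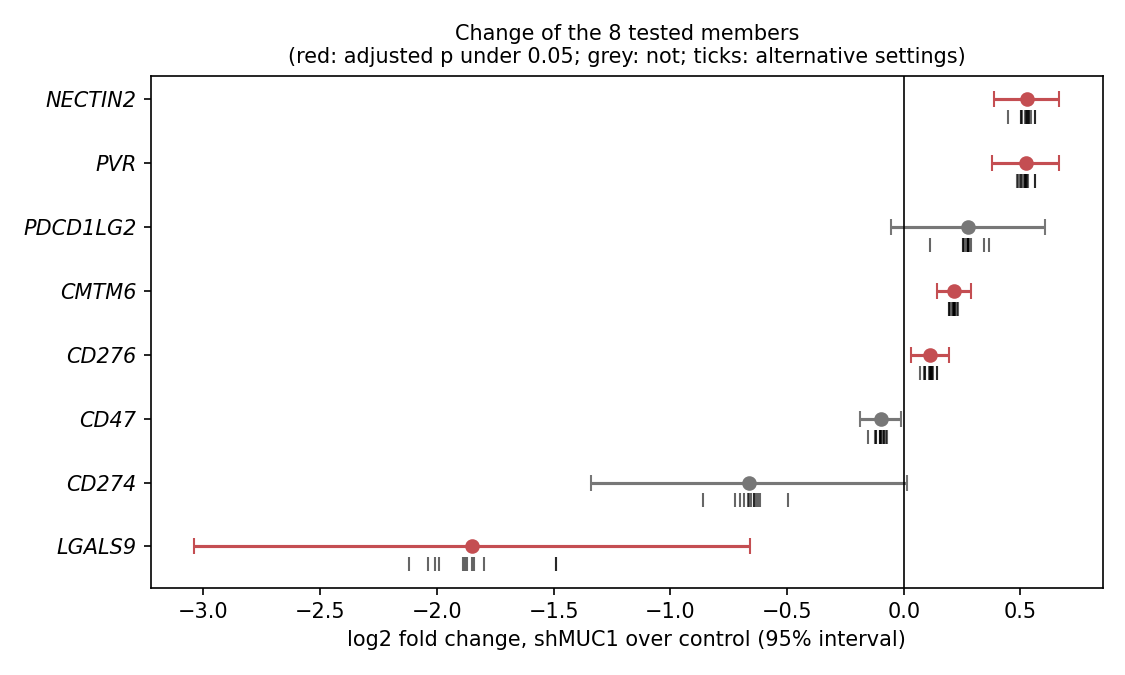
Log2 fold change of shMUC1 over control for the 8 tested members, with 95% intervals, red where the edgeR adjusted p was under 0.05 and grey otherwise, and small ticks for the values under 14 alternative settings (fewer where a gene dropped below the filter). PVR and NECTIN2 coincide near 0.52, and the intervals of CD274 and LGALS9 are the widest.

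None of the 10 members carried the 3′ UTR word ATCAGTA in any annotated transcript. MUC1 held it in 2 of its 26 annotated transcripts with a 3′ UTR. The word was looked up because an earlier look at these counts had picked it out, so it is no independent evidence here. Of the genes that averaged 50 counts or more and have a 3′ UTR in GENCODE, 15.4% held it. The values that follow come from the same counts that picked the word, so they test nothing. The length of the 3′ UTR was not taken into account. Of genes with the word 5.03% fell past both thresholds, against 1.57% of genes without it. The median log2 fold changes were -0.09 over 1729 genes and 0.04 over 9485.

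To place these genes among their partners, 8 related lists holding 74 genes were set beside them, leaving the cell markers out of that number. Of the 54 genes tested, 14 were higher, 18 were lower and 22 did not pass, so 59.3% were called beside 48.7% of all tested genes. The plot of related genes by list shows called genes on both sides of 0 in 6 of the 8 lists.

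**Figure D4:**
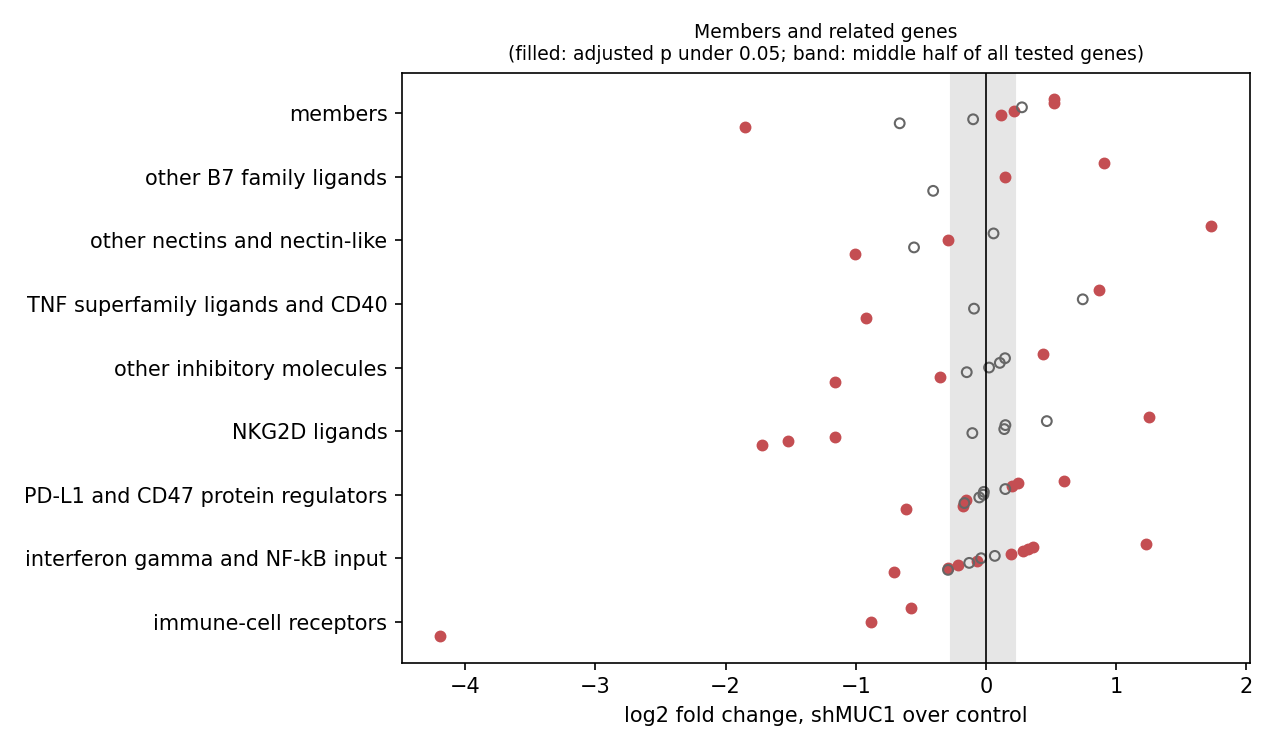
Log2 fold change of shMUC1 over control for tested members and related genes by list, filled where the edgeR adjusted p was under 0.05, with a grey band for the interquartile range of all tested genes. All tested regulators of PD-L1 and CD47 protein lie within 1 log2 unit of 0, and the lowest points are LAG3 and the member LGALS9.

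Among other B7 ligands, 2 of 3 tested genes rose and none fell (66.7% called, beside 48.7% of all tested genes). VSIR (VISTA), an inhibitory ligand and receptor of T cells, rose from 18.7 ± 0.929 to 35.1 ± 3.02 CPM (SD, n = 3 each), which is a log2 change of 0.90 with an edgeR adjusted p of 3.93e-12. NCR3LG1 (B7-H6), which activates natural killer cells through NKp30, rose by 0.14 with an adjusted p of 0.0415 and lost this call under 9 of 14 alternatives, each of the 6 fits without 1 library among them, which gave from 0.12 to 0.15. CD86 and HHLA2 were at 0. Of 5 tested nectins and nectin-like genes, 1 rose and 2 fell (60% called, beside the same 48.7%). NECTIN3, a trans-binding partner of PVR and NECTIN2, fell, with 74.1 ± 0.449 CPM in control and 60.5 ± 2.49 CPM in shMUC1 libraries (SD, n = 3 each) and a log2 change of -0.29. CADM1, which binds the T-cell and natural killer receptor CRTAM, had a log2 fold change of -1.01. The gene that rose was NECTIN4, at 1.73 from at most 32 counts, and is named after its value was seen.

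The receptor side of the CD47 axis was also measured in these cancer cells. SIRPA, the CD47 receptor of macrophages, fell, with 17.8 ± 0.113 CPM in control and 11.8 ± 2.16 CPM in shMUC1 libraries (SD, n = 3 each) and a log2 change of -0.58 with an edgeR adjusted p of 2.28e-05. QPCTL, the enzyme that modifies the CD47 N-terminus for SIRPA binding, had a log2 fold change of -0.62 with an adjusted p of 0.00243, and it overlaps SNRPD2 on the opposite strand. PDCD1 was at 0 in every library. Of 11 receptor genes 3 had enough counts to be tested, and all were lower, beside 23.6% of all tested genes. CD160, a receptor of HVEM, had a log2 fold change of -0.88 with overlapping groups and an edgeR adjusted p of 0.0277. This call was lost without control replicate 2 (-0.63, adjusted p 0.185), shMUC1 replicate 2 (-0.64, adjusted p 0.148) or shMUC1 replicate 3 (-0.71, adjusted p 0.106). It was also lost with DESeq2 on all libraries (DESeq2 adjusted p 0.0817). CD160 overlaps RNF115 on the opposite strand. LAG3, named after its values were seen, had 11, 14 and 18 counts in control and 0, 2 and 0 in shMUC1 libraries.

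Regulators of PD-L1 and CD47 protein, QPCTL among them, moved in both directions, with 3 of 11 higher, 3 lower and 5 not passing. The 54.5% called stands near the 48.7% of all tested genes. HIP1R, which directs PD-L1 to lysosomes, rose by 0.60 (edgeR adjusted p 1.06e-06). SPOP, the adaptor of a ubiquitin ligase that acts on PD-L1, rose by 0.25 (adjusted p 0.0018), and the palmitoyltransferase ZDHHC3 rose by 0.20. CMTM4, the relative of CMTM6 that can also stabilise PD-L1, had a log2 fold change of -0.15 (adjusted p 0.0125), lost without control replicate 3 (-0.11, adjusted p 0.0956). STT3A, a catalytic subunit of the N-glycosylation complex, had -0.18. CMTM6 and CMTM4 went in opposite directions, each by a small amount.

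Among 13 genes listed as inputs to PD-L1 transcription, 5 were higher, 4 were lower and 4 did not pass. The 69.2% called stands beside 48.7% of all tested genes. The list holds inhibitors as well as activators, so these counts do not show whether the input rose or fell. IFNGR1, the ligand-binding chain of the interferon gamma receptor, fell, with 40.9 ± 0.176 CPM in control and 25 ± 1.60 CPM in shMUC1 libraries (SD, n = 3 each) and a log2 change of -0.71 with an edgeR adjusted p of 5.26e-11. SOCS3, a feedback inhibitor of cytokine signalling, rose from 11.2 ± 1.02 to 26.3 ± 0.983 CPM (SD, n = 3 each), which is a log2 change of 1.23. PTPN2, a phosphatase that restrains JAK signalling, rose by 0.36. JAK1 rose by 0.32, and JAK2, 322.3 kb from CD274 on chromosome 9, had a log2 fold change of -0.22 with an adjusted p of 0.0132, lost without shMUC1 replicate 2 (-0.18, adjusted p 0.0674). RELA, a subunit of NF-kB, had -0.29. IRF1 had 6.92 ± 0.494 CPM in control and 6.35 ± 0.419 CPM in shMUC1 cells (SD, n = 3 each), with an adjusted p of 0.465.

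Other inhibitory molecules and natural killer ligands included some of the larger changes. NT5E (CD73), which makes immunosuppressive adenosine, fell, with 397 ± 13.2 CPM in control and 177 ± 11 CPM in shMUC1 libraries (SD, n = 3 each) and a log2 change of -1.16 with an edgeR adjusted p of 1.24e-24. The galectins went apart, with LGALS3 at 149 ± 3.38 and 202 ± 7.06 CPM and LGALS1 at 182 ± 7.79 and 143 ± 6.86 CPM (SD, n = 3 each) in control and shMUC1 cells. These were log2 fold changes of 0.44 and -0.35, and both passed. IDO1 was at 0 in all libraries. Of 8 NKG2D ligands, which flag stressed cells to natural killer cells, 1 was higher, 3 were lower and 4 did not pass. The 50% called stands near the 48.7% of all tested genes. ULBP2 fell, with 29.3 ± 1.16 CPM in control and 10.1 ± 1.51 CPM in shMUC1 libraries (SD, n = 3 each) and a log2 change of -1.52 with an adjusted p of 4.13e-16. RAET1G and RAET1E had log2 fold changes of -1.16 and -1.72, and RAET1L had 1.25. These relatives share sequence, so reads could have been split among them.

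Of 4 tested TNF superfamily genes, 1 rose and 1 fell (50% called, near the 48.7% of all tested genes). CD70, the ligand of CD27, had 4.34 ± 0.513 CPM in control and 2.29 ± 0.42 CPM in shMUC1 cells (SD, n = 3 each), and its log2 change was -0.92 with an edgeR adjusted p of 0.000264. TNFSF4 (OX40 ligand) had a log2 fold change of 0.87 with an edgeR adjusted p of 0.019. This call was lost without control replicate 3 (0.59, adjusted p 0.138) or shMUC1 replicate 2 (0.76, adjusted p 0.0817). It was also lost with DESeq2 on all libraries (DESeq2 adjusted p 0.0565).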

How the data were processed

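Transcripts were measured by RNA-seq in 3 control and 3 shMUC1 libraries, prepared with a stranded mRNA kit. The authors deposited counts by gene symbol, not normalized, and the submitters' processing notes name CASAVA 1.8.2, STAR 2.7.9a, featureCounts, DESeq2 1.24.0 and GRCh38.p7. The annotation release and the strand setting of the counting are not given in the sources used here. Counts were tested with edgeR 4.0.16 in R 4.3.3 (TMM scaling, filterByExpr, quasi-likelihood test, group as the only term, two-sided), with Benjamini-Hochberg adjustment over 15355 genes. CPM used TMM-scaled totals, standard errors came from the F statistic, and ratios used counts plus 0.5. Gene lengths, coordinates and 3′ UTRs came from GENCODE release 29 and promoters from RefSeq.

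The members and lists were chosen with earlier results of these data known. The genes named were all members, MUC1, IRF1, IDO1 and, from each related list, up to 3 rises and 3 falls past the threshold with a mean of at least 20 counts. Alternatives were DESeq2 size factors, library totals, no filter, means of 50 counts or more only, a replicate block, limma-voom (limma 3.58.1), DESeq2 1.42.0, halved counts and each library left out. Even values made up 69.6% ± 0.706 of counts from 1 to 20 in control and 70.2% ± 0.319 in shMUC1 libraries (SD, n = 3 each), and the reason was not tested. The labels do not say that cultures were separate, so p-values measure the spread between these libraries. The floor of 3 counts covers counting error only. The code was tested on simulated data.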

Additional observations from a re-analysis of the deposited data

How the results depend on the processing

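Across alternatives, members called higher numbered 3 to 4 without 1 library and otherwise 4. Members called lower numbered 2 with library totals only, 2 with a replicate block and from 1 to 2 without 1 library. Where 2 was reached, without control replicate 3 among the cases, CD47 joined LGALS9. In other settings the gene itself changed while the number stayed at 1. It was CD47 with means of 50 counts or more and with halved counts, where LGALS9 was not tested. Without shMUC1 replicate 2 it was CD47, and without control replicate 1 it was CD274, as LGALS9 lost its call in both. Members past both thresholds numbered 0 when only means of 50 counts or more were kept and 0 with halved counts, where LGALS9 had too few counts to be tested, and from 0 to 1 without 1 library, with 0 without control replicate 1 or shMUC1 replicate 2. MUC1 ranged from -1.02 to -0.75. The ratio of PVR to NECTIN2 turned sign without 1 library (from -0.0764 to 0.0586). For the named single genes other than MUC1, 468 of the alternative values kept their direction and side of the threshold, 22 lost the call and 7 gained it, and none turned direction.

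The replicate numbers gave no pairing, as the deviations of libraries with the same number had correlations of 0.0179, -0.0308 and -0.0361, and 1 of 3 controls correlated best with its own number. Under the replicate block, 3885 genes passed upward and 3591 downward, against 3866 and 3617 without it. The alternatives shifted the median of all genes by -0.0228 to 0.0101 on the log2 scale. Depth limits CD274, LGALS9, VTCN1 and TNFRSF14 most, at 47 counts or fewer in every library.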

Other observations

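MICB, an NKG2D ligand, varied more within the groups than between them, with 10, 122 and 30 counts in control and 27, 19 and 152 in shMUC1 libraries. Its log2 fold change of 0.47 had an edgeR adjusted p of 0.497.

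The share of the members' summed per-length level held by CMTM6, CD47 and CD276 was 81.3% ± 0.881 in control and 77.4% ± 0.651 in shMUC1 cells (SD, n = 3 each). The summed level itself was 393 ± 6.62 TPM and 426 ± 8.43 TPM. These sums were formed after the values were seen and were not tested.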
